A study of Mus musculus with 4 samples.

Results

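Of the 34745 genes in the deposited table, 94 protein-coding genes named as subunits of oxidative phosphorylation (OXPHOS) were the members here. Of these, 13 lie in the mitochondrial genome and 81 in the nucleus. They were chosen by gene symbol alone, as genes named mt-Nd, mt-Co, mt-Cytb, mt-Atp, Ndufa, Ndufb, Ndufc, Ndufs, Ndufv, Uqcr, Cox4i to Cox8 or Atp5, with the Ndufaf assembly factors and the pseudogenes left out. Complex I (NADH dehydrogenase) has 7 mitochondrial and 38 nuclear members, complex III (cytochrome bc1) 1 and 8, complex IV (cytochrome c oxidase) 3 and 18, and complex V (ATP synthase) 2 and 17. Names do not follow the complexes throughout. Ndufa4, a complex IV subunit, was counted in complex I by its name, and cytochrome c1 (Cyc1) of complex III was not a member. RNA came from macrophages grown from C57BL/6 mouse bone marrow. There were 2 libraries from cells transfected with Acly-E14 small interfering RNA (siRNA) and then given lipopolysaccharide (LPS), and 2 libraries from cells transfected with control siRNA and then given LPS. LPS was thus common to all 4 libraries, no library without LPS was analysed here, and the labels give no dose, time, age or separate culture for the libraries.

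The respiratory chain passes electrons from NADH and succinate to oxygen, and complexes I, III and IV use the energy to pump protons out of the mitochondrial matrix. Complex V lets the protons return and makes ATP. The mitochondrial genome is transcribed from both of its strands as long precursor RNAs that are cut into shorter RNAs. Below, the RNA of each of its 13 protein-coding genes is called a message, whether or not it is cut from its neighbour. All other subunits are transcribed in the nucleus and imported. In macrophages, LPS is known to shift energy production away from respiration and towards glycolysis.

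The libraries held 21023197 to 21837806 counts each, so counting error matters mainly for the sparse members. Acly, the siRNA target, was at 118 and 127 CPM (counts relative to library size, scaled with trimmed-mean or TMM factors) in Acly-E14 siRNA libraries and at 158 and 154 CPM in control siRNA libraries (log2 fold change -0.35, edgeR adjusted p = 0.0086, or 0.058 without control siRNA library 1). Of 12 macrophage markers, 3 were called higher (25.0%, against 17.3% of all genes tested) and 6 lower (50.0%, against 15.9%). Their summed level was 9075 to 9586 CPM in Acly-E14 siRNA libraries and 9201 to 9889 CPM in control siRNA libraries. Of 12 fibroblast and stroma markers, 10 were called higher (83.3%, against 17.3% of all genes tested) and 0 lower (against 15.9%). Their sums were 2711 to 3394 CPM in Acly-E14 siRNA libraries and 796 to 1212 CPM in control siRNA libraries, and no marker of that list was at 0. The part of these fibroblast and stroma transcripts in the results below was not tested. In bulk RNA, fewer cells of a type and less RNA per cell cannot be told apart.

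Pairs of neighbouring genes on the mitochondrial chromosome overlap, and 2 genes in such pairs gave the most uneven counts. The sequences of these overlaps are shown because they mark where one gene's counts end and the next gene's begin. They are from GENCODE M21 transcripts on mm10, plus strand, with the bases shared by the pair in capitals. The mt-Nd4l message (chrM:9877-10173) is shown whole, the start of mt-Nd4 (chrM:10167-10226) shares 7 bases with it, and the end of mt-Atp8 (chrM:7910-7969) shares 43 bases with the start of mt-Atp6 (chrM:7927-7986).
mt-Nd4l: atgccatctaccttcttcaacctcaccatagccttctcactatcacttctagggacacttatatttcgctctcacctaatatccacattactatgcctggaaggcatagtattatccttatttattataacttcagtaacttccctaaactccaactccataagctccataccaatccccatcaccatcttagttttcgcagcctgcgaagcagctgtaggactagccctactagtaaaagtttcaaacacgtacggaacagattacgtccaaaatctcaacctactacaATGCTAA
mt-Nd4 start: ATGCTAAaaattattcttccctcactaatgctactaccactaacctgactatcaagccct
mt-Atp8 end: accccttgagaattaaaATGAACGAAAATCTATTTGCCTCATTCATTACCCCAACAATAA
mt-Atp6 start: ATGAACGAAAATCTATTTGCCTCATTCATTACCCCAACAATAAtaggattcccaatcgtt

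Acly-E14 siRNA libraries held less mitochondrial messenger RNA. Among its 13 messages, 11 were called lower and 0 higher at an edgeR quasi-likelihood adjusted p under 0.05, which is 84.6%, against 15.9% of all 13108 genes tested that were called lower. The median log2 fold change over the 13 was -0.45, against 0.00 over all genes tested. All 13 had negative values, and in 12 of 13 both Acly-E14 siRNA libraries lay below both control siRNA libraries, as did those of 35.3% of all genes. Apart from mt-Nd4l and mt-Atp6, the called messages had log2 fold changes between -0.56 and -0.35.

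**Figure D1:**
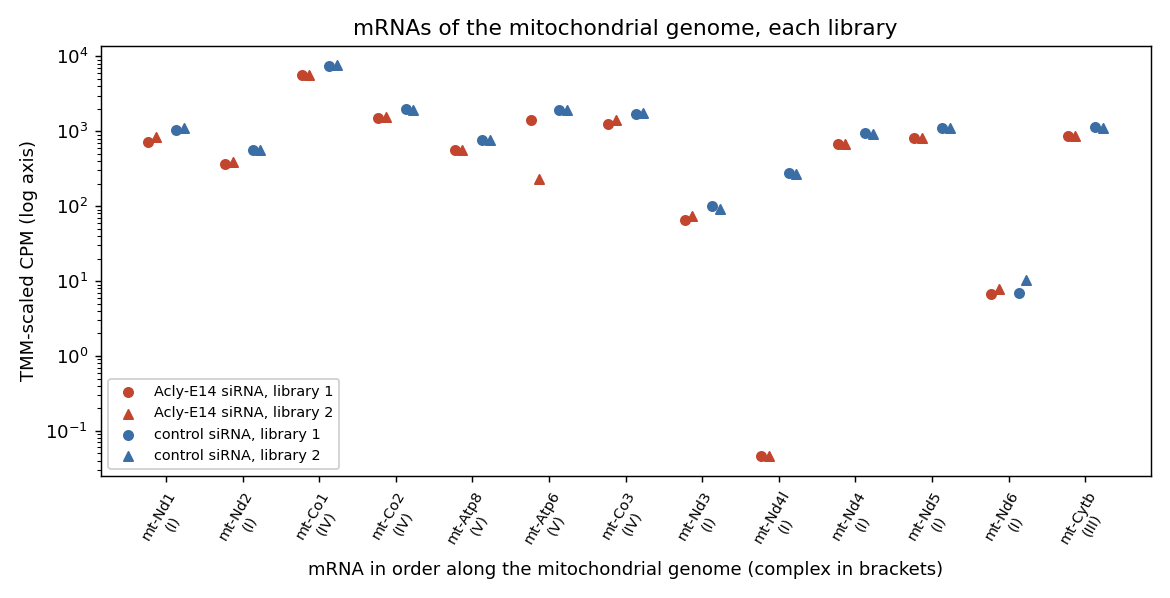
TMM-scaled CPM on a log axis for the 13 mitochondrial messages in each of the 4 libraries, ordered along the genome, with Acly-E14 siRNA to the left of control siRNA. In most genes both Acly-E14 siRNA points sit slightly under both control siRNA points, mt-Nd4l is near 0.046 CPM in both Acly-E14 siRNA libraries, mt-Atp6 is low in Acly-E14 siRNA library 2 alone, and the points of mt-Nd6 overlap between the groups.

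Complex I takes 7 of its subunits, membrane proteins of the proton-pumping arm, from the mitochondrial genome. mt-Nd1 was at 721 and 834 CPM in Acly-E14 siRNA libraries, against 1027 and 1107 CPM in control siRNA libraries. mt-Nd2, which had the largest change among the messages called lower apart from mt-Nd4l, was at 368 and 384 CPM in Acly-E14 siRNA libraries, against 555 and 556 CPM in control siRNA libraries (log2 fold change -0.56, SE 0.052, edgeR adjusted p = 0.0018). For both genes the groups were well apart, although the Acly-E14 siRNA libraries differed more from each other for mt-Nd1. mt-Nd3 was at 65.5 and 74.1 CPM in Acly-E14 siRNA libraries, against 102 and 92.0 CPM in control siRNA libraries (log2 fold change -0.47, SE 0.087). mt-Nd4 was at 679 and 685 CPM in Acly-E14 siRNA libraries, against 943 and 925 CPM in control siRNA libraries. mt-Nd5 was at 802 and 811 CPM in Acly-E14 siRNA libraries, against 1104 and 1100.4 CPM in control siRNA libraries. mt-Nd4 and mt-Nd5 thus had nearly equal log2 fold changes, -0.45 each with an SE of 0.051. The call of mt-Nd1 was lost without control siRNA library 2 (adjusted p = 0.060) and that of mt-Nd3 without control siRNA library 1 (adjusted p = 0.064).

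mt-Nd6 is the only one of the 13 encoded on the opposite strand of the genome, and its counts were low. It had 145 and 173 counts in Acly-E14 siRNA libraries, against 138 and 224 in control siRNA libraries, so the groups overlapped and it was not called (log2 fold change -0.26, SE 0.23, edgeR adjusted p = 0.43). It shares 14 bases with mt-Nd5 on the other strand, and whether the counting used strand is not given in the sources used here. Per length, mt-Nd6 was at 0.0291 and 0.0342 of the mt-Nd5 level in Acly-E14 siRNA libraries, against 0.0218 and 0.0335 in control siRNA libraries.

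mt-Nd4l, a small complex I subunit, stood apart from every other member. It had 1 and 1 counts in Acly-E14 siRNA libraries, against 5654 and 5814 in control siRNA libraries, a ratio of control siRNA over Acly-E14 siRNA of 6043 (exact 95% interval 1673 to 49906, counting error only). Its neighbour mt-Nd4, which follows it directly in the genome, had a log2 fold change of -0.45, close to that of mt-Nd5. Per length, mt-Nd4l was at 0.00031 of the mt-Nd4 level in both Acly-E14 siRNA libraries, against 1.38 and 1.36 times that level in control siRNA libraries. Summing the counts of mt-Nd4l and mt-Nd4 gave 14851 and 15001 counts in Acly-E14 siRNA libraries, against 24631 and 25581 in control siRNA libraries (log2 fold change -0.83, SE 0.052, edgeR adjusted p = 0.00084). The counts of mt-Nd4 were thus not raised where those of mt-Nd4l were near 0. Whether the difference lies in the RNA or in how reads were assigned was not tested.

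mt-Cytb, the only subunit of complex III from the mitochondrial genome, was at 857 and 859.8 CPM in Acly-E14 siRNA libraries, against 1150.1 and 1120.5 CPM in control siRNA libraries (log2 fold change -0.40, SE 0.052). The catalytic subunits of complex IV followed. mt-Co1, which holds the site that reduces oxygen and had the most counts of all members, was at 5597 and 5634 CPM in Acly-E14 siRNA libraries, against 7440.4 and 7570.2 CPM in control siRNA libraries (log2 fold change -0.42, SE 0.060, edgeR adjusted p = 0.0053). mt-Co2, which accepts electrons from cytochrome c, was at 1515 and 1540.3 CPM in Acly-E14 siRNA libraries, against 1962 and 1939 CPM in control siRNA libraries. mt-Co3 was at 1264 and 1410.4 CPM in Acly-E14 siRNA libraries, against 1692 and 1756 CPM in control siRNA libraries. In these 4 genes the groups did not overlap, and in each the libraries of a group lay closer to each other than to the other group. The mt-Co3 call (adjusted p = 0.013) was lost without Acly-E14 siRNA library 1 (0.053), control siRNA library 1 (0.058) or control siRNA library 2 (0.065) and with limma on log2(FPKM + 1) (0.055).

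ATP synthase takes its proton channel subunit a (mt-Atp6) and the small subunit mt-Atp8 from the mitochondrial genome. mt-Atp8 was at 561 and 570.4 CPM in Acly-E14 siRNA libraries, against 769.6 and 758 CPM in control siRNA libraries (log2 fold change -0.43, SE 0.051, edgeR adjusted p = 0.0029). mt-Atp6 had 30774 and 5095 counts in Acly-E14 siRNA libraries, against 39149 and 40771 in control siRNA libraries. Its level in Acly-E14 siRNA library 2 was thus far under that of library 1, and mt-Atp6 was not called (log2 fold change -1.23, SE 0.72, edgeR adjusted p = 0.24). Without Acly-E14 siRNA library 2 its log2 fold change was -0.45, close to the median of the 13, and it was called (adjusted p = 0.020), while without library 1 the value was -3.05 (adjusted p = 0.00050). Per length, mt-Atp6 was at 0.753 and 0.122 of the mt-Atp8 level in Acly-E14 siRNA libraries, against 0.757 and 0.753 in control siRNA libraries. Library 2 was therefore the exception among the 4, although the messages on either side of mt-Atp6, mt-Atp8 and mt-Co3, were not low in it. Summing mt-Atp8 and mt-Atp6 gave 43024 and 17583 counts in Acly-E14 siRNA libraries, against 54642 and 56985 in control siRNA libraries, and the sum was not called (adjusted p = 0.10).

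Most OXPHOS counts came from the mitochondrial genome, and this share was lower in Acly-E14 siRNA libraries. It was 81.1% and 80.1% of all OXPHOS member counts in Acly-E14 siRNA libraries, against 84.1% and 84.6% in control siRNA libraries. The means were 80.6% ± 0.684 in Acly-E14 siRNA libraries and 84.3% ± 0.348 in control siRNA libraries (SD, n = 2 each), the groups did not overlap, and the difference of means was -3.70 percentage points, or -2.99 points with mt-Nd4l and mt-Atp6 left out. Of all counts in a library, the mitochondrial messages made up 1.42% and 1.35% in Acly-E14 siRNA libraries, against 1.82% and 1.87% in control siRNA libraries. The nuclear members made up 0.331% and 0.336% in Acly-E14 siRNA libraries, against 0.345% and 0.342% in control siRNA libraries. Summed over complexes, the mitochondrial messages came to 13845 and 13044 CPM in Acly-E14 siRNA libraries, against 18978 and 19113 CPM in control siRNA libraries. With 2 libraries against 2, no exact permutation test of such a share can give a two-sided p below 0.333.

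**Figure D2:**
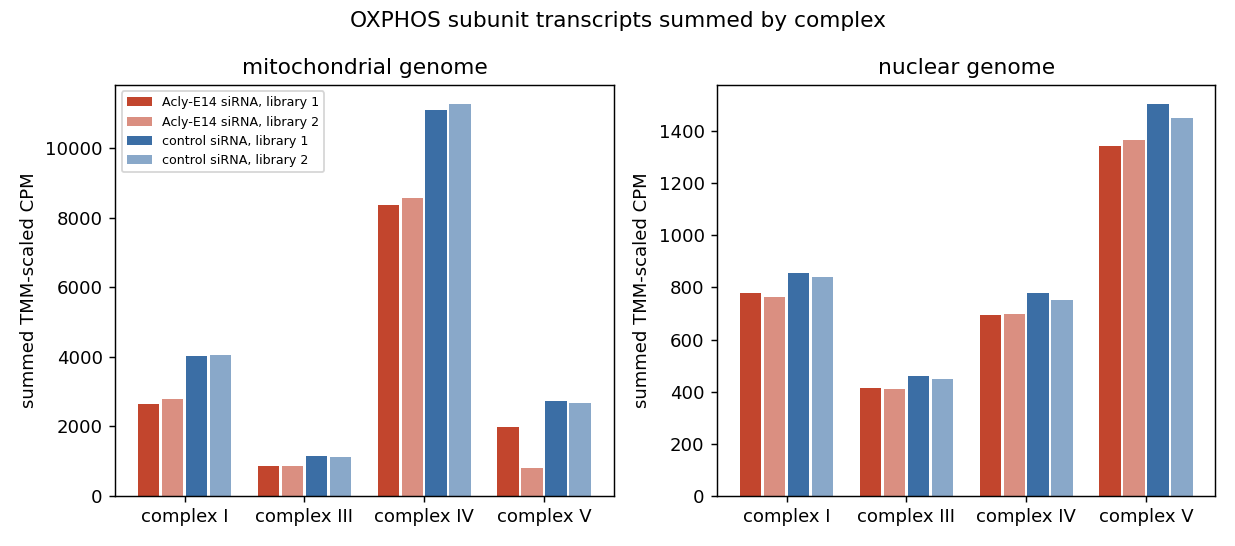
Summed TMM-scaled CPM of the members of each complex, for the mitochondrial genome (left) and the nuclear genome (right, other axis scale), 1 bar per library with Acly-E14 siRNA bars left of control siRNA bars. Complex IV messages of the mitochondrial genome sum to 8376 and 8584 CPM in Acly-E14 siRNA libraries and to 11094 and 11265 CPM in control siRNA libraries, while every nuclear sum differs far less between the groups.

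Nuclear subunits differed by small amounts, and the share called lower was close to that of all genes. Of the 81, 73 passed the filter on low counts. Of these, 12 were called lower, which is 16.4%, against 15.9% of all genes tested, and 1 was called higher, which is 1.37%, against 17.3% of all genes tested. The median log2 fold change over the 73 was -0.18, and 59 of them had negative values. In 45 members (61.6%) both Acly-E14 siRNA libraries lay below both control siRNA libraries and in 10 (13.7%) above, against 35.3% of all genes each way. When libraries were scaled by their totals alone, 5 nuclear members were called lower and 3 higher and the median was -0.09, with 51 values negative. The median of all genes was 0.09 under that scaling and 0.00 under TMM, and relative to it the nuclear median was -0.18 under either. With limma on log2(FPKM + 1), 6 were called lower and 4 higher. With the DESeq2 Wald test 9 were called lower and 0 higher, and the same numbers were called in edgeR without the filter on low counts. The calls of Ndufs1, Ndufs3, Atp5f1 and Atp5d were lost in both of these fits (adjusted p 0.055 to 0.164).

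**Figure D3:**
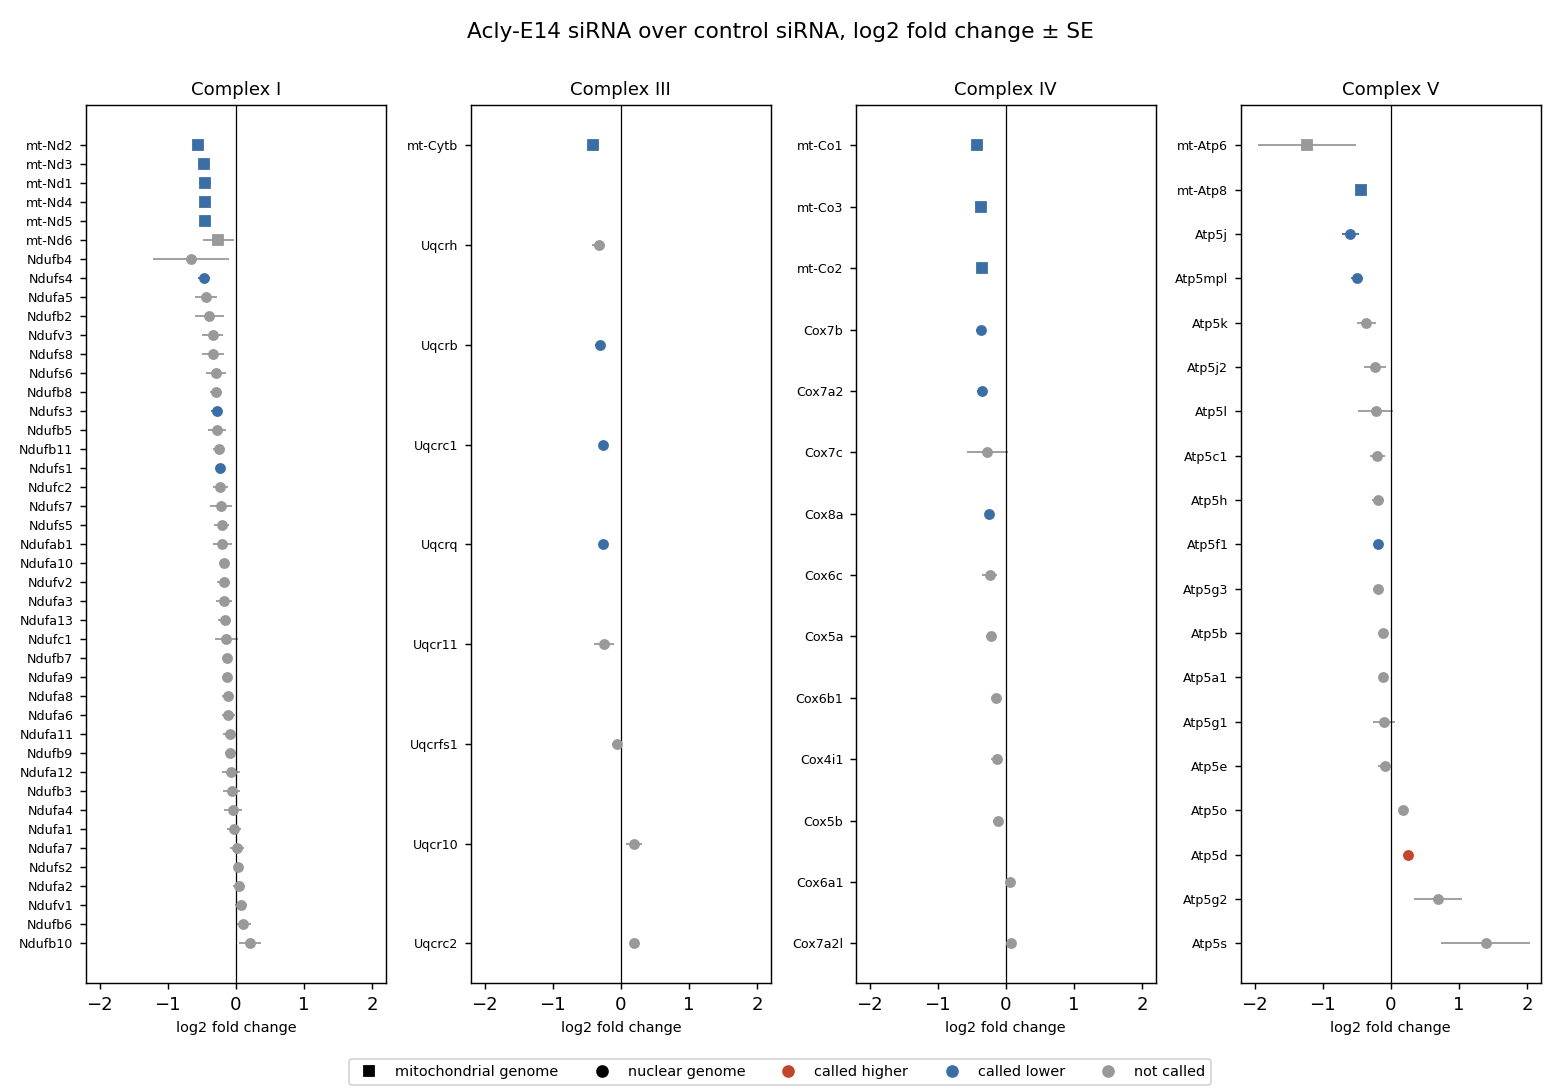
Log2 fold change of Acly-E14 siRNA over control siRNA with its SE for 85 of the 86 tested members, by complex (mt-Nd4l lies off the axis and is not drawn). Squares are mitochondrial and circles nuclear genes, blue marks genes called lower, red genes called higher and grey genes not called. Mitochondrial messages lie mostly between -0.56 and -0.35 and most nuclear ones cluster a little below 0.

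In complex I, 3 of 37 tested nuclear subunits were called lower and 0 higher, with a median of -0.18. That is 8.11% called lower, against 15.9% of all genes tested. Ndufs4, an accessory subunit of the arm that takes electrons from NADH, was at 24.9 and 23.7 CPM in Acly-E14 siRNA libraries, against 33.2 and 34.0 CPM in control siRNA libraries (log2 fold change -0.47, SE 0.081, edgeR adjusted p = 0.0093). This was the largest called change of the nuclear complex I genes, and it was lost without Acly-E14 siRNA library 2 (0.053). Ndufs1, the large iron-sulphur subunit, was at 48.9 and 47.8 CPM in Acly-E14 siRNA libraries, against 56.7 and 57.2 CPM in control siRNA libraries (log2 fold change -0.24). Ndufs3, a core subunit of the same arm, was at 23.4 and 23.7 CPM in Acly-E14 siRNA libraries, against 27.7 and 29.6 CPM in control siRNA libraries (log2 fold change -0.28, adjusted p = 0.04995). The groups were apart in both genes, but neither call survived leaving out a library, whichever it was (edgeR adjusted p 0.094 to 0.172). The remaining 34 had log2 fold changes between -0.66 and 0.21, with the outermost value for Ndufb4, which had 6 and 14 counts in Acly-E14 siRNA libraries and 19 and 11 in control siRNA libraries. Ndufa1 and Ndufa6, the complex I genes of highest level per length, had log2 fold changes of -0.03 and -0.11 and were not called (adjusted p = 0.84 and 0.41).

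In complex III, 3 of 8 nuclear subunits were called lower and 0 higher, with a median of -0.25. That is 37.5% called lower in a set of few genes, against 15.9% of all genes tested. Cyc1, counted with the electron carriers and not among the 8, was not called (log2 fold change -0.07, edgeR adjusted p = 0.47). Uqcrc1, a core protein on the matrix side, was at 87.1 and 87.3 CPM in Acly-E14 siRNA libraries, against 105 and 104 CPM in control siRNA libraries (log2 fold change -0.26, SE 0.054). Uqcrb, the ubiquinone-binding protein, was at 47.8 and 49.4 CPM in Acly-E14 siRNA libraries, against 57.3 and 62.7 CPM in control siRNA libraries (log2 fold change -0.30, SE 0.074). Uqcrq, a small accessory subunit, was at 69.0 and 68.5 CPM in Acly-E14 siRNA libraries, against 83.0 and 81.3 CPM in control siRNA libraries (log2 fold change -0.26, SE 0.057). These 3 genes had tight replicates and a gap between the groups. Uqcrc2, the partner core protein of Uqcrc1, was at 82.5 and 74.0 CPM in Acly-E14 siRNA libraries, against 67.7 and 68.5 CPM in control siRNA libraries, so its libraries lay the other way round, but it was not called (log2 fold change 0.20, SE 0.073, edgeR adjusted p = 0.083). Uqcrfs1, the Rieske iron-sulphur protein that hands electrons on, had a log2 fold change of -0.06 (adjusted p = 0.55). The calls of Uqcrc1 and Uqcrq were each lost on leaving out a library, whichever it was (edgeR adjusted p 0.060 to 0.108), and that of Uqcrb without Acly-E14 siRNA library 1 (0.117), Acly-E14 siRNA library 2 (0.093) or control siRNA library 2 (0.098).

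In complex IV, 3 of 11 tested nuclear subunits were called lower and 0 higher, with a median of -0.21. That is 27.3% called lower, against 15.9% of all genes tested. All 3 encode small subunits that surround the catalytic core. Cox7b was at 38.1 and 40.9 CPM in Acly-E14 siRNA libraries, against 51.0 and 50.4 CPM in control siRNA libraries (log2 fold change -0.36, SE 0.072, edgeR adjusted p = 0.014). Cox8a, the nuclear member of highest level per length, was at 95.7 and 98.9 CPM in Acly-E14 siRNA libraries, against 118 and 113 CPM in control siRNA libraries (log2 fold change -0.25, SE 0.057). Cox7b and Cox8a did not overlap between the groups. The call of Cox7b was lost without Acly-E14 siRNA library 1 (0.080) or control siRNA library 1 (0.066), and that of Cox8a without any 1 of the 4 libraries (0.058 to 0.110) and with library totals alone (0.075).

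Several complex IV subunits exist as isoforms used in different tissues, and in these macrophages the common forms carried nearly all of the counts. Cox7a2, the widespread form, was at 28.5 and 28.1 CPM in Acly-E14 siRNA libraries, against 36.4 and 36.0 CPM in control siRNA libraries (log2 fold change -0.35, SE 0.075, edgeR adjusted p = 0.017, and 0.053 to 0.087 without any 1 library). Its relative Cox7a2l, known for its part in joining complexes III and IV into supercomplexes, was at 80.7 and 78.6 CPM in Acly-E14 siRNA libraries, against 76.9 and 74.2 CPM in control siRNA libraries, and was not called (log2 fold change 0.08, adjusted p = 0.36). Cox7a1, the heart and muscle form, had 5 and 2 counts in Acly-E14 siRNA libraries and 11 and 3 in control siRNA libraries. Cox6a2, the muscle form of subunit VIa, had 7 and 8 counts in Acly-E14 siRNA libraries and 4 and 12 in control siRNA libraries, while Cox6a1 had 2144 and 2310 in Acly-E14 siRNA libraries and 1928 and 2115 in control siRNA libraries (not called, log2 fold change 0.06, adjusted p = 0.47). Cox6b2, the testis form of subunit VIb, had 13 and 7 counts in Acly-E14 siRNA libraries and 7 and 10 in control siRNA libraries, and Cox6b1 was not called (log2 fold change -0.15, adjusted p = 0.14). These rare forms were too sparse to be tested and overlapped between the groups. Cox4i2, Cox7b2, Cox8b and Cox8c had 0 counts in all 4 libraries, which allows up to 0.137 to 0.143 CPM per library, while Cox4i1, the common form of subunit IV, was at 149.8 and 132 CPM in Acly-E14 siRNA libraries, against 159.9 and 149 CPM in control siRNA libraries (not called, adjusted p = 0.24). Ndufa4, named for complex I but now known as a complex IV subunit, had a log2 fold change of -0.04 (adjusted p = 0.84). Its hypoxia-induced paralogue Ndufa4l2 had 4 and 4 counts in Acly-E14 siRNA libraries and 0 and 0 in control siRNA libraries, too few for the test.

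In complex V, 3 of 17 nuclear genes were called lower and 1 higher, with a median of -0.18. The 17.6% called lower is near the 15.9% of all genes tested, and the 5.88% called higher stands against 17.3%. Atp5j (coupling factor 6, in the stalk; chromosome 16, 84827866 to 84835625, minus strand) was at 36.6 and 28.3 CPM in Acly-E14 siRNA libraries, against 49.6 and 48.4 CPM in control siRNA libraries (log2 fold change -0.59, SE 0.13, edgeR adjusted p = 0.018). This was the largest called change of any nuclear member, with the Acly-E14 siRNA libraries apart from each other but both under the control siRNA libraries. Atp5j shares 397 exon bases with Gabpa, which lies on the opposite strand and had a log2 fold change of -0.27 (adjusted p = 0.034), so without known strand use their counts are less certain. Atp5mpl, a small membrane-bound subunit, was at 15.6 and 16.2 CPM in Acly-E14 siRNA libraries, against 22.5 and 22.5 CPM in control siRNA libraries (log2 fold change -0.50, SE 0.089). Atp5f1, subunit b of the stalk, was at 91.9 and 89.6 CPM in Acly-E14 siRNA libraries, against 103 and 104 CPM in control siRNA libraries (log2 fold change -0.19, SE 0.055). Atp5mpl and Atp5f1 were thus apart between the groups, by more in Atp5mpl. The only gene called higher was Atp5d, the delta subunit of the catalytic head, at 63.3 and 57.6 CPM in Acly-E14 siRNA libraries, against 52.0 and 49.3 CPM in control siRNA libraries (log2 fold change 0.26, SE 0.076, adjusted p = 0.048). Atp5s had a larger positive value but was not called (log2 fold change 1.39, SE 0.65, adjusted p = 0.15). The calls of Atp5d and Atp5f1 were lost without any 1 of the 4 libraries (0.077 to 0.221), that of Atp5j without control siRNA library 1 (0.084) or control siRNA library 2 (0.060), and that of Atp5mpl without control siRNA library 1 (0.053).

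Other called members also share exon bases with a neighbour, namely Atp5f1 (540 bases), Ndufs1 (498), Ndufs3 (88), Atp5d (68) and Uqcrb (50), and the part of the neighbours' reads in these calls was not tested.

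The catalytic core of ATP synthase was not called. Atp5b, the beta subunit that makes ATP, was at 508 and 523 CPM in Acly-E14 siRNA libraries, against 563 and 557 CPM in control siRNA libraries (log2 fold change -0.12, SE 0.051, edgeR adjusted p = 0.12). Atp5a1, the alpha subunit, was at 349 and 358 CPM in Acly-E14 siRNA libraries, against 387 and 378 CPM in control siRNA libraries (log2 fold change -0.11, adjusted p = 0.14). These 2 genes had the most counts of the nuclear members, and in each the groups lay apart by a small step. Subunit c, which forms the rotating ring, comes from 3 genes that encode the same mature protein. Of these Atp5g3 carried most of the counts, with 1018 and 1100 in Acly-E14 siRNA libraries and 1131 and 1149 in control siRNA libraries (log2 fold change -0.18, adjusted p = 0.10). Atp5g1 had 98 and 105 counts in Acly-E14 siRNA libraries and 104 and 102 in control siRNA libraries, and Atp5g2 had 28 and 20 counts in Acly-E14 siRNA libraries and 13 and 15 in control siRNA libraries. Neither was called (adjusted p = 0.69 and 0.18). Atp5g2, Atp5l, Atp5s, Ndufb4 and Cox7c had 2 to 83 counts per library, and pseudogene rows of the Atp5l and Atp5k families held 0 to 27 counts each. How reads that match several places were counted is not given in the sources used here, so the levels of such genes are uncertain.

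Per length, mitochondrial messages far exceeded nuclear ones in both groups. In complex IV the median level over the 3 mitochondrial genes was 2304 FPKM (fragments per kilobase of gene length, scaled to library size, means of 2 libraries per group) in Acly-E14 siRNA libraries and 2761 FPKM in control siRNA libraries. Over the 11 tested nuclear genes of complex IV it was 54.5 FPKM in Acly-E14 siRNA libraries and 56.2 FPKM in control siRNA libraries. Among nuclear genes the median was 8.83 FPKM in Acly-E14 siRNA libraries and 9.53 FPKM in control siRNA libraries for complex I, and 21.3 FPKM in Acly-E14 siRNA libraries and 20.8 FPKM in control siRNA libraries for complex III. For complex V it was 13.5 FPKM in Acly-E14 siRNA libraries and 13.6 FPKM in control siRNA libraries. Levels thus varied widely within a complex whose proteins assemble in fixed ratios, with complex IV highest in both genomes' medians except against complex V in the mitochondrial genome of control siRNA libraries. The gene lengths behind these values equalled the merged exons for all 13 mitochondrial genes but for 7 of 77 nuclear ones, where the ratio ran from 0.079 to 2.53 with a median of 1.34. Nuclear levels per length are uncertain to that degree. FPKM was scaled by library totals without TMM factors, unlike the CPM values and fold changes. The median log2 fold change of all genes was 0.09 under library totals and 0.00 under TMM. The complex III median was thus higher in FPKM in Acly-E14 siRNA libraries, although its median log2 fold change was -0.25 under TMM and -0.16 under library totals.

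**Figure D4:**
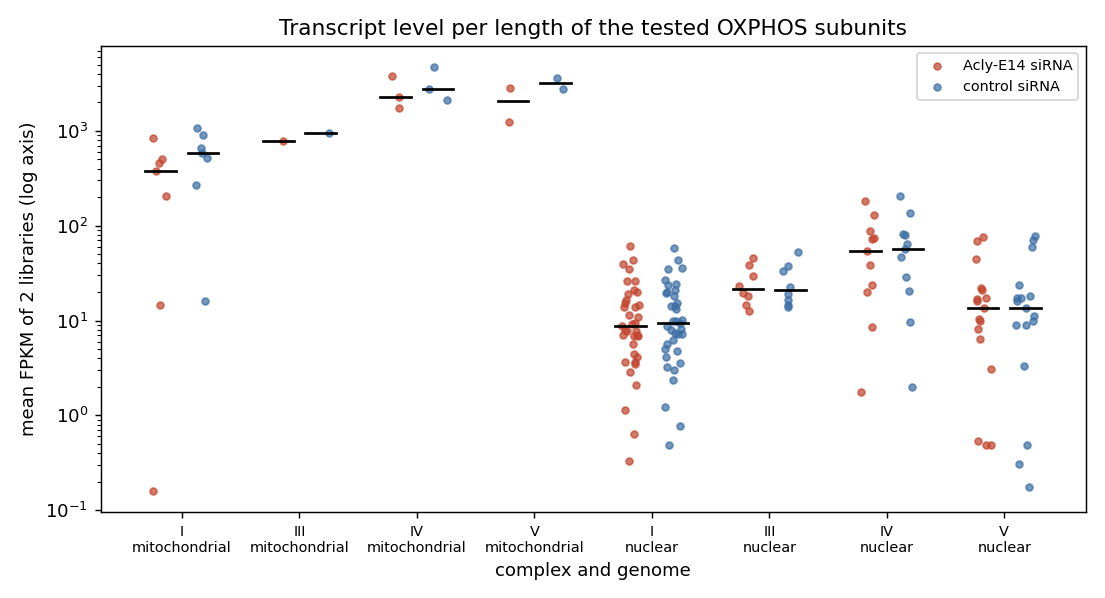
Mean FPKM of 2 libraries (library totals, no TMM factors) on a log axis for each tested member, by complex and genome, with Acly-E14 siRNA left of control siRNA and a bar at each median. Mitochondrial messages other than mt-Nd6 and, in Acly-E14 siRNA, mt-Nd4l lie above all nuclear ones, and the nuclear medians differ little between the groups.

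Genes that work around the OXPHOS subunits were taken from lists by function. Complex II, which is wholly nuclear and was not among the members, was tested with electron carriers, and of 11 genes 2 were called higher and 2 lower, 18.2% each way, near the 17.3% higher and 15.9% lower of all genes tested. Sdhb, the iron-sulphur subunit, was at 43.3 and 43.2 CPM in Acly-E14 siRNA libraries, against 28.8 and 29.0 CPM in control siRNA libraries (log2 fold change 0.58, SE 0.072, edgeR adjusted p = 0.0034). Sdha, the flavoprotein subunit, was at 148 and 146 CPM in Acly-E14 siRNA libraries, against 184 and 181 CPM in control siRNA libraries (log2 fold change -0.31, adjusted p = 0.0081, or 0.057 without control siRNA library 1). The catalytic subunits of complex II thus moved in opposite directions. Sdhc, a membrane anchor, had a log2 fold change of 0.28 (adjusted p = 0.030, a call lost without any 1 library, 0.084 to 0.152). Etfa, which carries electrons from fatty acid oxidation, was at 35.7 and 35.6 CPM in Acly-E14 siRNA libraries, against 60.1 and 57.1 CPM in control siRNA libraries (log2 fold change -0.72, adjusted p = 0.0019).

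Of 33 tested genes that copy mitochondrial DNA or make and process its RNA, 7 were called lower (21.2%, against 15.9% of all genes tested) and 1 higher (3.03%, against 17.3%), with a median of -0.06. Ssbp1, which coats single-stranded mitochondrial DNA, was at 20.2 and 21.2 CPM in Acly-E14 siRNA libraries, against 32.5 and 34.4 CPM in control siRNA libraries (log2 fold change -0.69, SE 0.086, edgeR adjusted p = 0.0034). Ptcd1 and Grsf1, RNA-binding proteins of the organelle, had log2 fold changes of -0.64 and -0.57 (adjusted p = 0.0042 and 0.0031), and Pnpt1, the mitochondrial RNA exonuclease, of -0.37 (adjusted p = 0.011, or 0.056 without control siRNA library 1 or control siRNA library 2). Of 49 tested assembly factors, 8 were called lower (16.3%, near the 15.9% of all genes tested) and 0 higher (against 17.3%), with a median of -0.06. Cox11, which delivers copper to complex IV, was at 5.86 and 6.58 CPM in Acly-E14 siRNA libraries, against 11.5 and 10.3 CPM in control siRNA libraries (log2 fold change -0.81, SE 0.14, adjusted p = 0.0090). Oxa1l, which inserts mitochondrial proteins into the inner membrane, had a log2 fold change of -0.43, Pet100 of -0.79 and Coa5 of -0.26. These last 3 calls were lost without 3 or 4 of the libraries in turn (adjusted p up to 0.139). Among 11 tested nuclear regulators of respiratory genes, 1 was called higher (9.09%, against 17.3% of all genes tested) and 1 lower (9.09%, against 15.9%), with a median of -0.02. Ppard, a lipid-sensing nuclear receptor, was the higher one (log2 fold change 0.81, edgeR adjusted p = 0.0051). Gabpa, an ETS-family factor, was the lower one, a call lost without any 1 library. Of 23 genes of the outer membrane and of protein import, 1 was called higher (4.35%, against 17.3% of all genes tested) and 0 lower (against 15.9%), with a median of -0.03. It was the channel gene Vdac2 (log2 fold change 0.50, adjusted p = 0.0033). With library totals alone, the medians of these 5 lists were between 0.03 and 0.07, so their sign turned with the scaling. The median of all genes was 0.09 under that scaling and 0.00 under TMM. Relative to it, the medians of the 5 lists were between -0.07 and -0.02 under either.

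Promoters of nuclear members were read from RefSeq (GRCm38.p6), where 64 of the 81 genes had an entry of 250 bases before to 50 after a start. Letters known from binding sites of regulators of respiratory genes were searched on both strands, the palindromic NRF1 motif, CCGGAAG for ETS factors such as GABPA and AAGATGGC for YY1. The NRF1 letters stood in 15 of 64 members (23.4%), against 7.17% of 17492 protein-coding genes. The ETS letters stood in 14 members (21.9%), against 12.9% of protein-coding genes, and the YY1 letters in 9 (14.1%), against 3.57%. Members with and without the NRF1 letters had median log2 fold changes of -0.19 (15 tested) and -0.18 (45 tested). For the ETS letters the medians were -0.23 (14 tested) with and -0.18 (46 tested) without, and for the YY1 letters -0.23 (9 tested) with and -0.18 (51 tested) without. Of the 7 members called lower that had a promoter entry, 1 held the NRF1, 3 the ETS and 2 the YY1 letters. These differences were not tested. A match is a description and does not show binding. The promoters of Uqcrc1 (chr9:108936398-108936697, plus strand) and Ndufs4 (chr13:114388045-114388344, minus strand) are shown as examples of members called lower, Uqcrc1 with NRF1 letters and Ndufs4 with YY1 letters, with all matches in capitals.
Uqcrc1: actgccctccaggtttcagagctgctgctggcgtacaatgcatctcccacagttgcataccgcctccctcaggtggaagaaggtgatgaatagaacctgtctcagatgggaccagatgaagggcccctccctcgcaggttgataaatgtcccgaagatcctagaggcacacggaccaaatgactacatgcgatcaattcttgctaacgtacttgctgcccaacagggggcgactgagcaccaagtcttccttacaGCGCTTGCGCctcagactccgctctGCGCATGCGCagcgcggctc
Ndufs4: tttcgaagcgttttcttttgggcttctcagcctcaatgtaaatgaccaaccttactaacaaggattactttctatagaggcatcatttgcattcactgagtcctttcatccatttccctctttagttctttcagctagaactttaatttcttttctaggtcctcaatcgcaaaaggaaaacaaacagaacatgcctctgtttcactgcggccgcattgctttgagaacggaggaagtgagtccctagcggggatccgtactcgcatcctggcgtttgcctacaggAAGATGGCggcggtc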

How the data were processed

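RNA-seq gene tables of 4 mouse macrophage libraries were used. The authors deposited raw counts for each gene in whole numbers, as the file headers show, and FPKM values, scaled for gene length and library size. HISAT2, StringTie 1.3.0, edgeR and the build mm10 are named in the submitters' processing notes, but for counting, neither a program nor a strand setting or annotation is given in the sources used here. Per the labels' protocols, preparation used a stranded kit for total RNA as well as beads that capture mRNA. A further value column (1) could not be tied to a replicate by its name and was left out, and FPKM was recomputed for all 4 libraries from the counts and the gene length implied by the deposited FPKM. Symbols matched 34267 of 34745 IDs, and gene types and coordinates are those of GENCODE M21.

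The test was edgeR 4.0.16 (R 4.3.3), after filterByExpr (minimum count 10), TMM factors and the quasi-likelihood F test of Acly-E14 siRNA over control siRNA without covariates. Calls were made where p, adjusted by Benjamini-Hochberg across the 13108 genes, was under 0.05, and SEs are those implied by the F statistic. The fit was tested on simulated data. Replicates differed by more than sampling noise (chi-square per degree of freedom 11.0 in Acly-E14 siRNA and 9.52 in control siRNA), and since no label says that they were separate cultures, p-values measure no more than sample-to-sample spread, which may be technical. The members and lists were chosen with earlier results of these data known. Named were the 13 mitochondrial messages, the called nuclear members, the members of highest FPKM per complex, isoform sets and up to 4 genes of smallest p per list. Genes named outside this rule (Uqcrc2, Cyc1, Ndufb4, Cox7c, Atp5l, Atp5s, Cox7b2 and the pseudogenes) were chosen after their values were seen. Neutrophil, erythroid and muscle marker lists were also computed. Of 2 tested neutrophil genes, 1 was called higher and 1 lower, and 2 of 2 tested erythroid genes were called lower. Of all genes tested, 17.3% were called higher and 15.9% lower. Of 7 muscle genes, 0 were tested.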

Additional observations from a re-analysis of the deposited data

How the results depend on the processing

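Every one of the 11 fits tried (a replicate block, each library left out, RLE factors, library totals, DESeq2 1.42.0, no low-count filter, limma 3.58.1 on log2(FPKM + 1), and totals without mitochondrial genes) and the looser threshold called 9 to 12 of the 13 mitochondrial messages, none higher, where the fit as reported called 11. The messages were not always the same, since mt-Atp6 was called when Acly-E14 siRNA library 1 or 2 was left out and mt-Co3 was lost without library 1. For nuclear members, of which 13 were called, 2 to 4 were called with any 1 library left out, 8 with library totals alone, 21 at an adjusted p under 0.1 and 7 among the 45 tested members that share no exon bases with another gene. Of the 13 calls, 0 held in all 4 fits that leave out a library and 8 in none of them, against 8 of 11 mitochondrial calls that held in all 4. Over all genes, 4354 were called, against 2088 to 3215 with any 1 library left out. The 4354 calls were 33.2% of all genes tested, which is the share to set beside the 7 of 45 nuclear members. How many of all genes had an adjusted p under 0.1 is not given here, so the 21 nuclear members have no such share beside them. Higher genes were 2264 of 4354 calls with TMM factors, 2776 of 4222 with library totals and 2669 of 4058 with limma. The difference in mitochondrial share, -3.70 percentage points, was -2.38 points per length, -2.99 without mt-Nd4l and mt-Atp6, and -4.18 to -3.21 with any 1 library left out. No named value that was called changed direction. The replicate numbers share only a number (correlation of deviations 0.14), and with the replicate block 11 mitochondrial members, 15 nuclear members and 4896 genes in all were called. Near-identical copies of members were not searched for. Where calls were lost, the cause was not tested, and the fits that leave out a library use fewer samples.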
